A study of Mus musculus with 9 samples.

Results

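The circadian clock genes of mouse B cells are described here through 10 members chosen by name: the period genes Per1, Per2 and Per3, the cryptochrome genes Cry1 and Cry2, the activator genes Arntl and Clock, the nuclear receptor genes Nr1d1 and Nr1d2, and the output gene Dbp. All 10 stood among the 22178 gene symbols of the deposited table, and all 10 reached the mean of 1 TPM over the 9 libraries that was set for testing. TPM is a gene's share of the transcripts of a library after correction for length, so levels can be compared between genes. RNA was sequenced from 3 groups of B cells with 3 libraries each. For B2B1, the labels give the peritoneal cavity as tissue and B1-8VH12/Vk4 as strain. Their antigen receptor had been switched by induction about 30 days earlier, if the name B2toB1 in the protocol means these cells. For B1, which by name are the B cells known mainly from body cavities, tissue and strain label are the same as for B2B1. For B2, the conventional B cells, the tissue is spleen and the strain label is VH12B1-8/Vk4. C57BL/6 (backcrossed) is the genetic background of all 9 libraries. The time of day at which cells were taken, and the age and number of mice, are not given in the labels. Tissue, strain label and any difference in sampling time cannot be told apart from cell type in the comparisons with B2, and sampling time cannot be told apart from group in any comparison. The labels do not tell whether each library is a mouse of its own, and p-values here cover only the spread among these libraries, which may be technical.

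The mammalian clock is a loop of transcription. CLOCK and BMAL1, the product of Arntl, bind E-box elements as a pair and switch on the Per and Cry genes, whose proteins return to the nucleus and inhibit that pair. The same pair drives Nr1d1 and Nr1d2, which encode REV-ERB alpha and beta. These receptors repress Arntl through elements that they share with the activating ROR receptors, and Dbp encodes an activator that acts through D-boxes and is opposed there by NFIL3. Messenger RNAs of the loop cycle over the day in many tissues, lymphoid organs among them, with Arntl out of phase with Per, Nr1d1 and Dbp.

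RefSeq promoter windows on GRCm38.p6, which run from 250 bases before to 50 bases after a transcription start, were found for 9 of the 10 members (13 windows; Per2 had none). They were searched on both strands for the E-box CACGTG, the D-box TTATGNAA, the ROR element (AAA, any base, then TAGGTCA) and the cyclic AMP response element TGACGTCA. No searched motif contains another. Of all 32851 windows, 7.15% held the E-box, 3.38% the D-box, 0.0578% the ROR element and 1.79% the cyclic AMP response element. Matches fell in windows of 4 members: Per1, Per3, Arntl and Cry1. Their windows are shown with that of Bhlhe41, the clock pathway gene that differed most between the groups, with the matched letters in capitals, written 5′ to 3′ on the strand of the gene.
Per1 promoter: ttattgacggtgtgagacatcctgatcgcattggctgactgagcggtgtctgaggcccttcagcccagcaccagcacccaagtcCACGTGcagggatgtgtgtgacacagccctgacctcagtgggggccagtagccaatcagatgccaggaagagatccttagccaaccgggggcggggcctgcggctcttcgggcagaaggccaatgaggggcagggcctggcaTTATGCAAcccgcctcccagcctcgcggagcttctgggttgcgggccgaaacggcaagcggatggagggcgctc
Per3 promoter: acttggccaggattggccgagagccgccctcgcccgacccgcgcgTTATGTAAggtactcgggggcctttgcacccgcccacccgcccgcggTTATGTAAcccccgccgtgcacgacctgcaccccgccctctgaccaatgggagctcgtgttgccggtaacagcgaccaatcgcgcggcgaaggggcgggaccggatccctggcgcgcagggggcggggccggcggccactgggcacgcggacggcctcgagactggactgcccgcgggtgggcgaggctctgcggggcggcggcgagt
Arntl promoter: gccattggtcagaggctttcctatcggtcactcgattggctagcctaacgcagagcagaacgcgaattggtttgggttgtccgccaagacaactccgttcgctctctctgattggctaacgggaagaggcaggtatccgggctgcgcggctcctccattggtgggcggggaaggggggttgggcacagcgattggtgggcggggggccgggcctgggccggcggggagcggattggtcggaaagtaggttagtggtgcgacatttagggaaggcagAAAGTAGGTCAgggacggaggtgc
Cry1 promoter: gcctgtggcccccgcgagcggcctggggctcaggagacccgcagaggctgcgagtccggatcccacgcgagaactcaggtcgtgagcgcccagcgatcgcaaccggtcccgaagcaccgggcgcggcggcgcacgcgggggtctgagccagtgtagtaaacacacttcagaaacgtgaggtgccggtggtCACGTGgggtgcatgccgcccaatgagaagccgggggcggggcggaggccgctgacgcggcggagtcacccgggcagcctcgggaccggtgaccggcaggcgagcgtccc
Bhlhe41 promoter: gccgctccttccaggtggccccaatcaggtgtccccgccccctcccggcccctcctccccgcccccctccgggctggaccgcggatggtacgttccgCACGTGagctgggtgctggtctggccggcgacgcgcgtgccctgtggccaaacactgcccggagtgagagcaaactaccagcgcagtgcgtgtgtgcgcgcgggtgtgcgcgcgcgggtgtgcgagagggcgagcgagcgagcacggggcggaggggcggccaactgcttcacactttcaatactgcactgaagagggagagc

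The Per1 window, chr11:69098699-69098998 on the plus strand, had the E-box with its first base 166 bases before the start and the D-box TTATGCAA 24 bases before it. The Per3 window, chr4:151044616-151044915 on the minus strand, had the D-box TTATGTAA at 205 and again at 158 bases before the start. The Arntl window, chr7:113207261-113207560 on the plus strand, had the ROR element AAAGTAGGTCA beginning at base 27 of the transcript. In the Cry1 window, chr10:85185005-85185304 on the minus strand, the E-box lay 60 bases before the start, and in that of Bhlhe41, chr6:145865371-145865670 on the minus strand, 153 bases before it. A match is a run of letters, not a measured binding site.

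The libraries held B cell transcripts throughout: all 6 markers of a B cell list reached 1 TPM in every group. The summed level of 8 B-1 markers was 1623 to 1983 TPM in B2B1 and 1173 to 1387 TPM in B1, against 30.1 to 32.4 TPM in B2. Cd5, 1 of the 8, was far lower in B2B1 than in B1. It was at 1.22 to 1.85 TPM in B2B1 and 13.4 to 22.9 TPM in B1, against 0.609 to 1.09 TPM in B2. Summed macrophage markers were higher in the peritoneal libraries: 7 of 9 were in the table, and together they reached 63.4 to 239.2 TPM in B2B1 and 21.1 to 45.8 TPM in B1, against 1.15 to 2.30 TPM in B2. Emr1 and Lyz2 made up most of the sum. Lyz2 was uneven within B1, where library 1, at 1.22 TPM, lay within the B2 range of 0.424 to 1.52 TPM. Fcgr1 was at 0.163 TPM or less in every library. None of the 7 was at 0 throughout a group, and among all 9 libraries the sum was highest in B2B1 library 1, through Lyz2 at 180.9 TPM. Without B2B1 library 1, the log2 fold changes of B2B1 against B2 were −1.43 for Arntl, −1.80 for Per2 and −1.25 for Cry2, close to those with it. That of Cry1 (−0.35) lost its call, that of Clock turned from 0.18 to −0.21, and no member was called lower in B2B1 than in B1. The remaining B2B1 libraries also held summed macrophage markers above B2, so that fit does not remove them. In B2 library 2 and B2B1 libraries 1 and 2, Xist was at 0.355 to 0.461 TPM, against 180.4 to 298.1 TPM in the other 6 libraries. The groups were thus not balanced for Xist, and B1 held only libraries with high Xist. Differences that go with Xist cannot be fully told apart from group, above all in B2B1 against B1. Summed T cell markers (6 of 7 in the table) also differed, at 20.2 to 25.9 TPM in B2B1 and 25.9 to 32.2 TPM in B1, against 13.04 to 15.9 TPM in B2. None was at 0 throughout a group. Lck had the highest mean of them in each group, at 17.9 TPM in B2B1, 12.4 TPM in B1 and 6.72 TPM in B2. Cd3g was at 6.12 to 10.7 TPM in B1, but at 0.512 TPM or less in B2B1 and B2. Cd3d, Cd3e, Cd4 and Cd8a overlapped between each peritoneal group and B2. The mean of Cd3d was 3.48 TPM in B2B1 and 7.41 TPM in B1, against 5.10 TPM in B2. Dendritic cell markers (4 of 4) summed to 1.44 to 1.60 TPM in B2B1 and 1.297 to 1.51 TPM in B1, against 15.6 to 17.4 TPM in B2. That difference lay in Flt3 alone, at 14.1 to 16.2 TPM in B2 and at 0.194 TPM or less in the peritoneal libraries. Xcr1 (means of 1.08, 1.19 and 1.17 TPM in B2B1, B1 and B2) and Itgax (0.324, 0.188 and 0.297 TPM) overlapped between the groups, and Siglech was at 0 in every group. The part of these marker differences in the clock values was not tested. An alternative to the full set kept only the libraries with high Xist, 1 of B2B1, 3 of B1 and 2 of B2, in which the lone B2B1 library is assumed to vary like the other groups.

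Across the 3 groups the clock genes split into members that were lower in peritoneal cells (Arntl, Per2 and Cry2), members that were higher in B1 (Nr1d1 and Nr1d2), 1 that was lower in B2B1 than in either other group (Per1), and 1 that was slightly higher in both peritoneal groups (Dbp). Cry1 moved little, and Clock and Per3 varied widely within groups and passed no test with all libraries. In the following, values of a group are given for libraries 1, 2 and 3, means are with SD (n = 3), and fold changes are log2 differences of TPM + 1 with SE. In these bulk samples fewer cells of a type and less RNA per cell cannot be told apart.

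**Figure D1:**
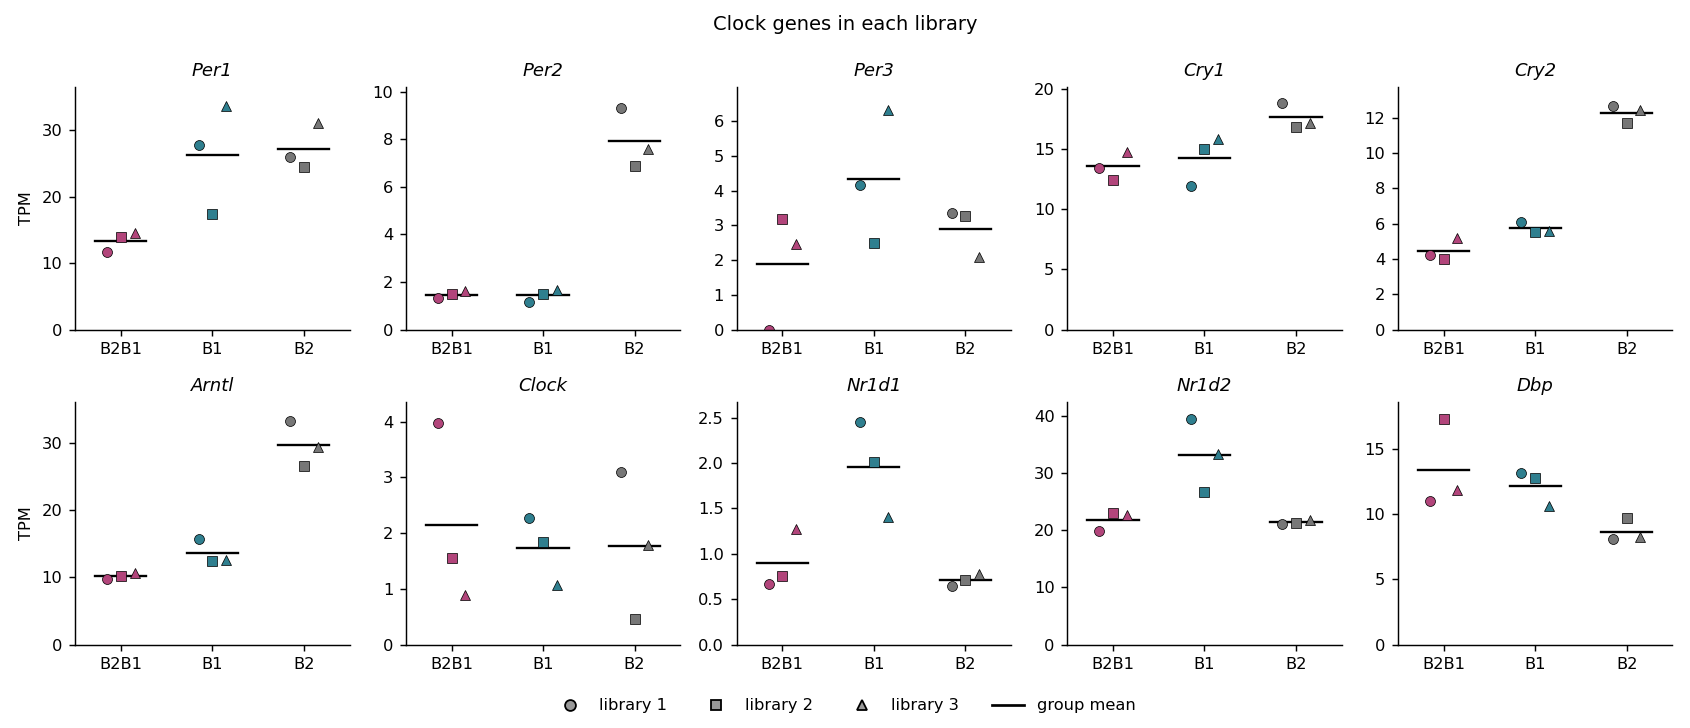
TPM of the 10 clock genes (vertical axes from 0) in each library of B2B1, B1 and B2; symbols mark library numbers and bars group means. Per2, Cry2 and Arntl were lower in every peritoneal library than in every B2 library, and Nr1d1 was highest in the 3 B1 libraries (1.40 to 2.45 TPM).

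Per2, a repressor of the loop and the member with the largest log2 difference from B2, was at 1.33, 1.48 and 1.61 TPM in B2B1 and at 1.16, 1.52 and 1.65 TPM in B1, against 9.30, 6.86 and 7.59 TPM in B2. The peritoneal groups overlapped each other, and every one of their values lay below every B2 value. The mean of 1.47 ± 0.141 TPM in B2B1 was 5.37-fold lower than the 7.91 ± 1.25 TPM of B2 (log2 fold change −1.84 ± 0.14, limma adjusted p = 7.23e-06). In B1 the mean of 1.44 ± 0.255 TPM was 5.5-fold lower than in B2 (−1.87 ± 0.14, limma adjusted p = 9.12e-06). Between B2B1 and B1 the difference was 0.02, with a 95% interval from −0.30 to 0.35 on the log2 scale.

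Arntl, which encodes the activator BMAL1, was at 9.76, 10.2 and 10.6 TPM in B2B1 and at 15.7, 12.5 and 12.5 TPM in B1, against 33.2, 26.6 and 29.3 TPM in B2. The 3 groups did not overlap: B2B1 was lowest and B2 highest. Arntl fell to 10.2 ± 0.436 TPM in B2B1, 2.92-fold below the 29.7 ± 3.31 TPM of B2 (−1.45 ± 0.11, limma adjusted p = 7.22e-06). In B1 it fell to 13.6 ± 1.87 TPM, 2.19-fold below B2 (−1.08 ± 0.11, limma adjusted p = 6.03e-05). B2B1 lay below B1 by a further step (−0.37 ± 0.11, limma adjusted p = 0.0476). That last call was lost under 17 of 21 alternatives, in which the adjusted p ranged up to 0.401, while its direction stayed the same in all 21.

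Cry2, a partner of the period proteins in repression, followed the same order. It was at 4.20, 4.01 and 5.18 TPM in B2B1 and at 6.11, 5.52 and 5.58 TPM in B1, against 11.7 to 12.7 TPM in B2. Again the groups did not overlap. Cry2 was 2.75-fold lower in B2B1 than in B2 (−1.29 ± 0.11, limma adjusted p = 9.70e-06) and 2.14-fold lower in B1 than in B2 (−0.98 ± 0.11, limma adjusted p = 7.31e-05). B2B1 against B1 missed the threshold (−0.31 ± 0.11, limma adjusted p = 0.0721, 95% interval −0.55 to −0.07).

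Cry1, the paralog of Cry2, differed far less between the groups. It was at 13.5, 12.4 and 14.8 TPM in B2B1 and at 11.9, 14.99 and 15.9 TPM in B1, against 18.8, 16.9 and 17.2 TPM in B2. Every peritoneal value lay below every B2 value, by a narrow margin. The call in B2B1 against B2 (−0.36 ± 0.11, limma adjusted p = 0.022) was lost when the TPM were rescaled by median-of-ratios factors (−0.14) or quantile normalized (−0.21). It was also lost without B2 library 1 (−0.31) or B2B1 library 1 (−0.35) or 2 (−0.30), and among the libraries with high Xist (−0.27). B1 against B2 missed the threshold (−0.30 ± 0.11, limma adjusted p = 0.0559).

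The balance of the cryptochrome pair, which no scaling of a library alters, differed between the tissues. Cry1 exceeded Cry2 by 1.68, 1.63 and 1.51 on the log2 scale in B2B1 and by 0.97, 1.44 and 1.51 in B1, against 0.57, 0.53 and 0.47 in B2. The ratio was higher in all 6 peritoneal libraries than in the 3 B2 libraries.

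Per1, a repressor that is also induced by cyclic AMP and glucocorticoid signals, behaved differently from Per2. It was at 11.7, 13.9 and 14.6 TPM in B2B1 and at 27.8, 17.5 and 33.7 TPM in B1, against 26.0, 24.5 and 31.1 TPM in B2. All B2B1 libraries lay below all others, while the B1 and B2 values overlapped. Per1 was 2.03-fold lower in B2B1 than in B2 (−0.97 ± 0.21, limma adjusted p = 0.00329) and 1.96-fold lower than in B1 (−0.88 ± 0.21, limma adjusted p = 0.0207). Among the libraries with high Xist neither difference passed (−0.91 against B2 and −0.76 against B1). The call against B1 was lost without B1 library 1 (−0.82) or 3 (−0.68), without B2B1 library 1 (−0.79), and when only these groups were fitted (adjusted p = 0.0618). B1 and B2 were not told apart (−0.09 ± 0.21, 95% interval −0.56 to 0.39).

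Per3, the third period gene, was at 2.62e-06, 3.19 and 2.47 TPM in B2B1 and at 4.16, 2.48 and 6.34 TPM in B1, against 3.37, 3.27 and 2.09 TPM in B2. The groups overlapped, and B2B1 library 1 was in effect at 0. No comparison passed (limma adjusted p from 0.174 to 0.532). The interval for B2B1 against B1 ran from −2.2 to 0.08, and the other intervals were as wide, so that a large difference could have gone undetected. Without both B2B1 library 1 and B1 library 2, Per3 was called higher in B1 than in B2 (0.67, limma adjusted p = 0.035). B1 library 2 held the lowest of the B1 values, and the other 19 of 20 alternatives gave no call in this comparison. Per3 lies wholly within Camta1 on the same strand in the annotation.

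Clock, which encodes the partner of BMAL1, varied widely within groups. It was at 3.98, 1.56 and 0.893 TPM in B2B1 and at 2.28, 1.84 and 1.07 TPM in B1, against 3.09, 0.460 and 1.78 TPM in B2. The ranges of all 3 groups overlapped, and B1 lay wholly within both others. Differences ran from 0.07 to 0.18 with SE of 0.44 (limma adjusted p from 0.739 to 0.903), and their sign turned under 5 of the 20 alternatives in each comparison. Npas2, a relative that can replace CLOCK, was listed at 0 in 8 of 9 libraries, and Arntl2 in all 9.

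Nr1d1 and Nr1d2, the genes of the Arntl repressors, had their highest levels in B1. Nr1d2 (REV-ERB beta) was at 19.9, 23.0 and 22.6 TPM in B2B1 and at 39.5, 26.7 and 33.4 TPM in B1, against 21.1, 21.3 and 21.8 TPM in B2. All B1 values lay above all others, and B2B1 overlapped B2. Nr1d2 rose 1.55-fold in B1 over B2 (0.60 ± 0.13, limma adjusted p = 0.00387), a call that held under all 21 alternatives. In B2B1 it was lower than in B1 (−0.57 ± 0.13, limma adjusted p = 0.0159), a call lost without B2B1 library 1 (−0.51), when only these groups were fitted, and among the libraries with high Xist. Between B2B1 and B2 the difference was 0.03, with a 95% interval from −0.26 to 0.31.

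Nr1d1 (REV-ERB alpha) was much scarcer, at 0.664, 0.759 and 1.28 TPM in B2B1 and at 2.45, 2.01 and 1.40 TPM in B1, against 0.648, 0.714 and 0.782 TPM in B2. The B1 values again lay above the rest. It reached the mean of 1 TPM for testing only through B1, which favours a difference. Nr1d1 rose 2.74-fold in B1 over B2 (0.77 ± 0.19, limma adjusted p = 0.0072), also where no filter was applied. The lower level in B2B1 than in B1 (−0.64 ± 0.19, limma adjusted p = 0.0435) lost its call under 15 of 20 alternatives. The 3′ end of Nr1d1 overlaps that of Thra on the opposite strand by 1075 bases, and the counting is not stated to use strand. Thra, a thyroid hormone receptor gene, was at 0.264 to 0.959 TPM in B2B1 and 0.682 to 1.999 TPM in B1. In B2 it was at 2.36 to 3.61 TPM, and it reached the mean of 1 TPM for testing mainly through B2, which favours a difference. In B2B1 against B1 both genes were lower, Thra without a call (−0.58 ± 0.25, limma adjusted p = 0.145). In B1 against B2, Thra went the other way from Nr1d1 (−0.85 ± 0.25, limma adjusted p = 0.02). That Thra call was lost under 5 of 20 alternatives: without B1 library 2 (−0.64), B2 library 1 (−0.80) or 2 (−0.76), among the libraries with high Xist (−0.76) and with a pseudocount of 0.1 (adjusted p = 0.0506). On the opposite strand, Cry2 also overlaps D930015M05Rik and Arntl overlaps Gm45355, so reads of these genes may be split or shared.

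Dbp, the D-box activator, was at 10.98, 17.3 and 11.9 TPM in B2B1 and at 13.2, 12.8 and 10.6 TPM in B1, against 8.07, 9.67 and 8.26 TPM in B2. The peritoneal groups overlapped each other and lay above B2. Dbp rose 1.54-fold in B2B1 over B2 (0.55 ± 0.16, limma adjusted p = 0.0154), a call lost without B2 library 1 (0.51, adjusted p = 0.0528) and among the libraries with high Xist (0.49). In B1 it was 1.41-fold above B2 (0.45 ± 0.16, limma adjusted p = 0.0447). The B1 call was lost under 8 of 21 alternatives, among them leaving out B1 library 1 (0.39) or 2 (0.41), any B2 library (0.40 to 0.52) or B2B1 library 3 (0.45, adjusted p = 0.054). Dbp overlaps Sphk2 on the opposite strand by 737 bases. Sphk2 was at 18.2 to 22.7 TPM in B2B1 and 19.5 to 23.7 TPM in B1, against 24.4 to 26.5 TPM in B2. It was called lower in B2B1 than in B2 (−0.33 ± 0.10, limma adjusted p = 0.0183), but not under either rescaling (−0.11 and −0.15). In B1 against B2 it was not called (−0.24 ± 0.10, limma adjusted p = 0.0721).

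**Figure D2:**
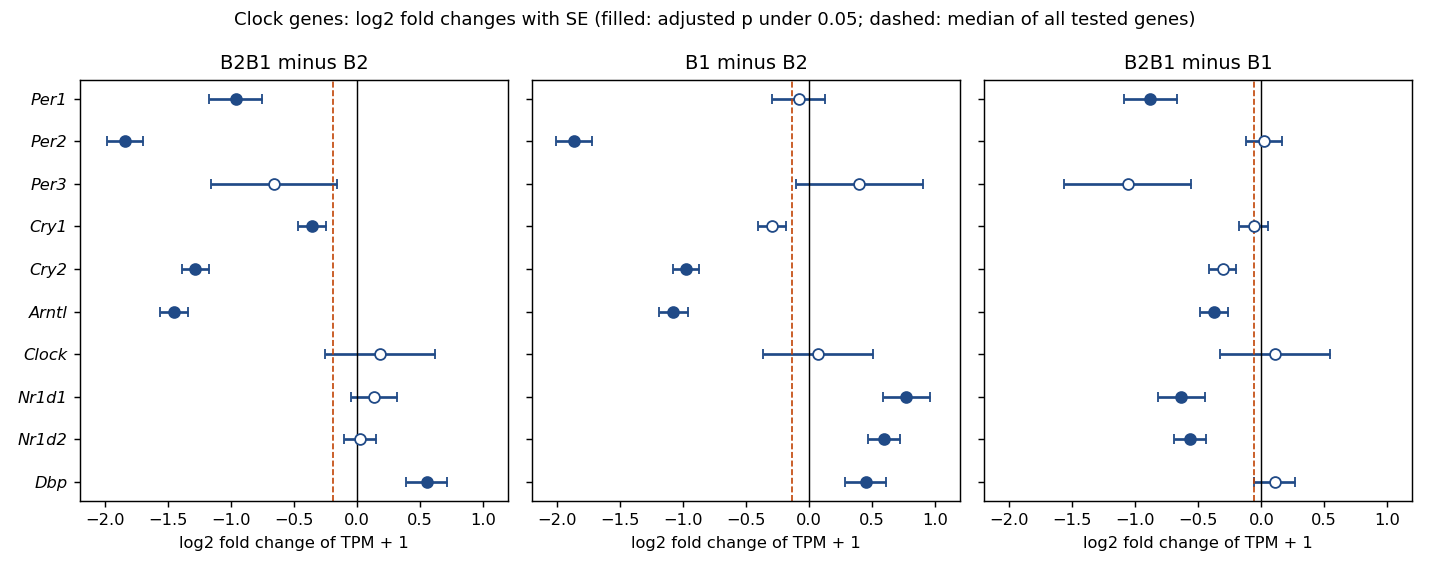
Log2 fold changes of TPM + 1 (horizontal axes) of the 10 clock genes in B2B1 minus B2, B1 minus B2 and B2B1 minus B1; points are limma estimates, bars SE, filled points calls at an adjusted p under 0.05, and the dashed line the median of all tested genes. Per2, Cry2 and Arntl lay below 0 in both comparisons with B2, while Nr1d1 and Nr1d2 lay above 0 in B1 minus B2 and below 0 in B2B1 minus B1.

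Counted together, 5 members were called lower in B2B1 than in B2 (Per1, Per2, Arntl, Cry1 and Cry2) and 1 higher (Dbp), against 42.0% of all 11099 tested genes called lower and 21.0% called higher. In B1 against B2, 3 were lower (Per2, Arntl and Cry2) and 3 higher (Nr1d1, Nr1d2 and Dbp), against 33.9% and 18.0% of all tested genes. In B2B1 against B1, 4 were lower (Per1, Arntl, Nr1d1 and Nr1d2) and 0 higher, against 12.1% and 6.93% of all tested genes. The 4 lower calls in B2B1 against B1 were fragile: none held when only these groups were fitted or among the libraries with high Xist, and leaving out B2B1 library 1 gave 0, B1 library 1 gave 1, and B2B1 library 2, B1 library 3 or any B2 library gave 2. Calls in either direction numbered 6 of 10 members in B2B1 against B2, 6 in B1 against B2 and 4 in B2B1 against B1, beside 63.0%, 51.9% and 19.0% of all tested genes. Members whose groups did not overlap numbered 1 higher and 5 lower in B2B1 against B2, where the shares of all tested genes were 24.5% and 47.7%. They numbered 3 higher and 4 lower in B1 against B2 (21.9% and 39.8% of all tested genes) and 0 higher and 5 lower in B2B1 against B1 (12.0% and 23.7%). The comparisons with B2 share the B2 libraries and those with B1 share the B1 libraries. The median log2 fold change of the members was −0.51 in B2B1 against B2, −0.01 in B1 against B2 and −0.34 in B2B1 against B1, where the median of all tested genes was −0.19, −0.14 and −0.06. Median-of-ratios scaling moved the medians of all tested genes to 0.02, 0.01 and 0.01. It also moved the share of calls that were higher to 53.5% in B2B1 against B2 and 53.6% in B1 against B2, where unscaled TPM gave 33.3% and 34.7%, and to 54.9% in B2B1 against B1, where unscaled TPM gave 36.5%. Relative to the median of all genes, Per2 differed by −1.65 in B2B1 against B2 and by −1.73 in B1 against B2, Arntl by −1.26 and −0.94, and Cry2 by −1.09 and −0.84.

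The order of levels changed with the group. In B2B1, Nr1d2 (21.8 TPM) stood clear of Cry1, Per1 and Dbp, whose means of 13.4 to 13.6 TPM came with overlapping ranges, and Arntl, Cry2, the overlapping Clock, Per3 and Per2, and Nr1d1 followed. In B1, Nr1d2 (33.2 TPM) and Per1 (26.3 TPM) led and overlapped. Cry1, Arntl and Dbp followed there without separating, then Cry2 and Per3, which overlapped, and then Nr1d1, Clock and Per2, which overlapped too. In B2, Arntl (29.7 TPM) and Per1 (27.2 TPM) stood at the top and overlapped, then came Nr1d2, Cry1 and Cry2, each apart from the next, Dbp with Per2, and last Per3, Clock and Nr1d1. Summed over the 10 genes, the level was 76.0, 87.8 and 86.0 TPM in B2B1 and 124.2, 97.9 and 122.1 TPM in B1, against 136.3, 121.9 and 132.3 TPM in B2.

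Ratios within a library compare members of the loop and are not affected by how a library is scaled. Arntl over Dbp was −0.17, −0.76 and −0.16 in B2B1 and 0.26, −0.03 and 0.24 in B1, against 2.04, 1.46 and 1.83 in B2, all on the log2 scale. Each group held its own range, with B2 far above the others. Arntl over Nr1d2 was −1.03, −1.18 and −1.09 in B2B1 and −1.33, −1.10 and −1.42 in B1, against 0.66, 0.33 and 0.43 in B2. Arntl thus exceeded its repressor gene Nr1d2 in every B2 library and stayed below it in every peritoneal library. Arntl over Nr1d1 was 3.88, 3.75 and 3.06 in B2B1 and 2.68, 2.64 and 3.16 in B1, against 5.68, 5.22 and 5.23 in B2. Clock over the sum of Per1, Per2 and Per3 did not separate the groups. It was −1.71, −3.57 and −4.39 in B2B1 and −3.86, −3.54 and −5.29 in B1, against −3.64, −6.23 and −4.52 in B2. Arntl over Nr1d2, and Cry1 over Cry2 above, were added to the ratios first planned. All of these ratios are descriptions without a test.

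**Figure D3:**
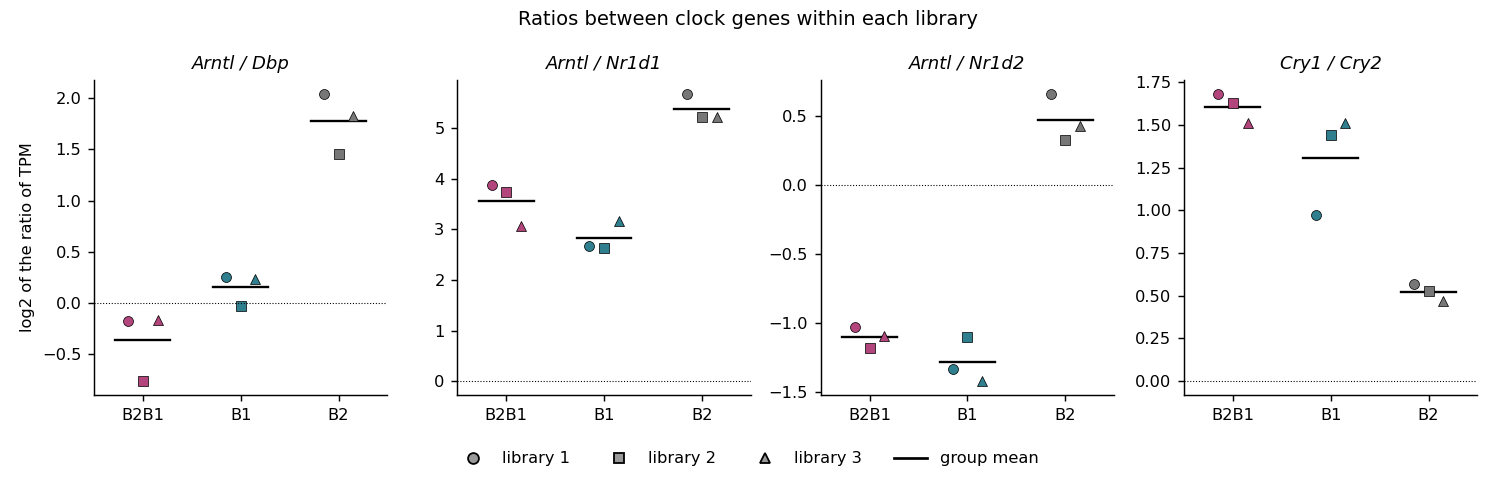
Log2 ratios of TPM between clock genes within each library of B2B1, B1 and B2 (vertical axes); symbols mark library numbers, bars group means, and the dotted line a ratio of 1. Arntl over Dbp and Arntl over Nr1d2 were above 0 in all B2 libraries, while Arntl over Nr1d2 was below 0 in all 6 peritoneal libraries.

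Some other genes of the clock pathway differed by more than any of the 10 members. Of a list of 30, 28 were in the table and 20 were tested. In B2B1 against B2, 6 were higher and 4 lower, in B1 against B2 6 were higher and 5 lower, and in B2B1 against B1 3 were higher and 2 lower, against the shares of all genes given above. The median of their log2 fold changes was −0.07, −0.001 and 0.04. The 8 untested genes of the list included the ROR receptor genes Rora, at 0.0923 TPM or less, and Rorb, at 0.312 to 0.634 TPM.

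Nfil3, which encodes the repressor that competes with DBP at D-boxes, was at 43.3, 35.9 and 76.0 TPM in B2B1 and at 24.7, 26.7 and 18.8 TPM in B1, against 1.84, 1.42 and 2.05 TPM in B2. The 3 groups did not overlap. Nfil3 rose 29.2-fold in B2B1 over B2 (4.19 ± 0.25, limma adjusted p = 1.76e-06) and 13.2-fold in B1 over B2 (3.13 ± 0.25, limma adjusted p = 1.28e-05). It was also higher in B2B1 than in B1 (1.06 ± 0.25, limma adjusted p = 0.0208). That call was lost without B1 library 1 (1.10) or 3 (0.91) and when only these groups were fitted. Tef, a D-box activator related to Dbp, was at 15.4 to 22.6 TPM in B2B1 and 23.7 to 34.9 TPM in B1, against 28.1 to 31.1 TPM in B2. Its lower level in B2B1 than in B2 (−0.56 ± 0.17, limma adjusted p = 0.0164) was not called under either rescaling (−0.34 and −0.38), without B2 library 1 (−0.53) or among the libraries with high Xist (−0.42).

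Bhlhe41 encodes DEC2, a repressor at E-boxes that is also known as a regulator of B-1a cells in mice. It was at 101.8, 59.0 and 63.0 TPM in B2B1 and at 59.3, 72.6 and 70.5 TPM in B1, against 1.49, 2.11 and 0.817 TPM in B2. The peritoneal groups overlapped and lay far above B2. It rose 50.7-fold in B2B1 over B2 (4.93 ± 0.24, limma adjusted p = 5.05e-07) and 45.8-fold in B1 over B2 (4.82 ± 0.24, limma adjusted p = 6.26e-07). Bhlhe41 stands in the submitters' own deposited signature of 28 genes, which may have been chosen on these samples, so its direction is not independent evidence. Of the 10 members 0 are in that signature.

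Its paralog Bhlhe40 (DEC1) took another order. It was at 15.4, 16.6 and 17.2 TPM in B2B1 and at 3.67, 6.48 and 3.66 TPM in B1, against 12.3, 11.4 and 9.90 TPM in B2. No groups overlapped, with B2B1 highest and B1 lowest. Bhlhe40 was 3.56-fold higher in B2B1 than in B1 (1.67 ± 0.18, limma adjusted p = 0.000527), a call that held under all 21 alternatives, and 2.44-fold lower in B1 than in B2 (−1.16 ± 0.18, limma adjusted p = 0.000659). The smaller rise in B2B1 over B2 (0.52 ± 0.18, limma adjusted p = 0.0314) was lost under 6 of 21 alternatives, among them leaving out B2 library 2 (0.53) or 3 (0.44) or B2B1 library 2 (0.50) or 3 (0.48).

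**Figure D4:**
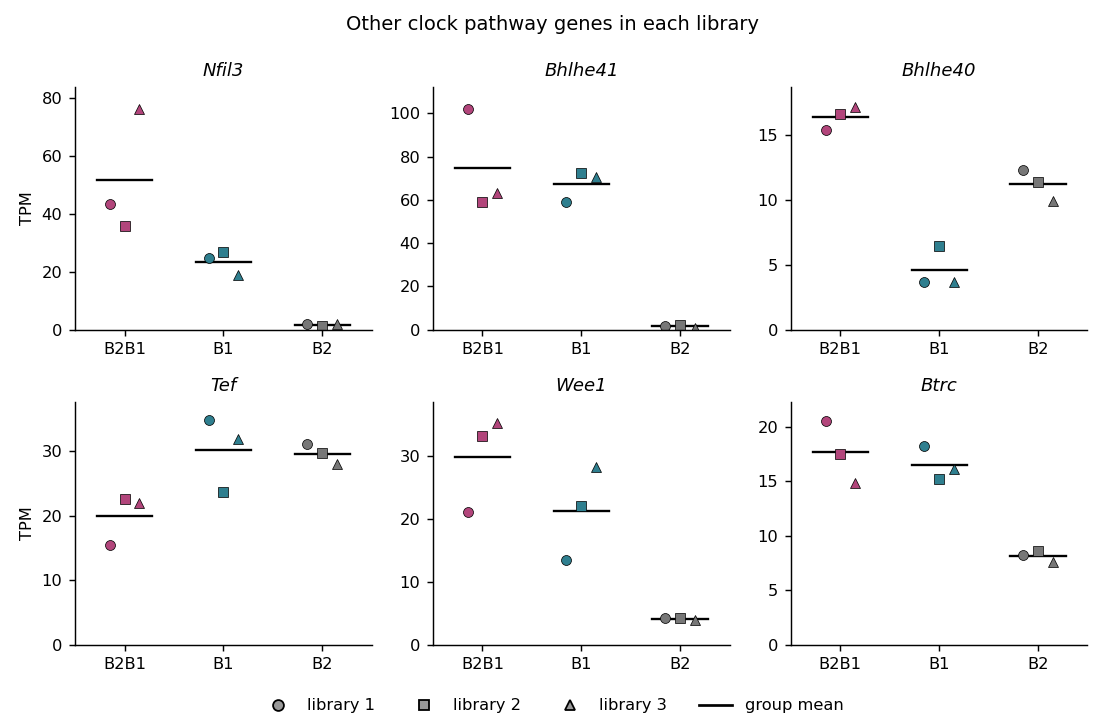
TPM of 6 other clock pathway genes (vertical axes from 0) in each library of B2B1, B1 and B2; symbols mark library numbers and bars group means. Nfil3, Bhlhe41, Wee1 and Btrc were higher in every peritoneal library than in every B2 library, and Bhlhe40 was lowest in B1.

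Wee1, a mitotic kinase gene and a clock target in mouse liver, was at 21.1 to 35.2 TPM in B2B1 and 13.5 to 28.2 TPM in B1, against 3.96 to 4.16 TPM in B2. It rose by 2.57 ± 0.26 in B2B1 over B2 (limma adjusted p = 3.39e-05) and by 2.07 ± 0.26 in B1 over B2 (limma adjusted p = 0.000181). Btrc, a subunit of a ubiquitin ligase that marks period proteins for degradation, was at 14.9 to 20.6 TPM in B2B1 and 15.2 to 18.2 TPM in B1, against 7.56 to 8.55 TPM in B2 (1.02 ± 0.12 in B2B1 over B2, limma adjusted p = 9.48e-05). Its relative Fbxw11 and the kinase gene Gsk3b were not called in any comparison. Csnk1e, a casein kinase of period proteins, was at 8.502 ± 1.09 TPM in B2B1, lower than the 12.9 ± 0.953 TPM of B2 (−0.55 ± 0.12, limma adjusted p = 0.00393). Nampt, a clock-controlled enzyme of NAD synthesis, was higher in B2B1 than in B2 (0.51 ± 0.09, limma adjusted p = 0.00072). Its partner in that circuit, the deacetylase gene Sirt1, was lower in B2B1 than in B2 (−0.45 ± 0.08, limma adjusted p = 0.00133), as was the phosphatase gene Ppp1cb (−0.38 ± 0.07, limma adjusted p = 0.00174). Median-of-ratios scaling ended the Ppp1cb call (−0.15), and those of Csnk1e (−0.58), Sirt1 (−0.34) and Ppp1cb (−0.26) did not pass among the libraries with high Xist.

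Signals from outside the loop can set Per1, so 2 further lists were read beside it. Of 10 glucocorticoid-responsive genes, Per1 included, 7 were lower and 0 higher in B2B1 than in B2, 4 lower and 0 higher in B1 than in B2, and 3 lower and 1 higher in B2B1 than in B1. Beside these stand the 42.0%, 33.9% and 12.1% of all tested genes called lower, and the 4 of 10 in B1 against B2 are near that share. Their median log2 fold changes were −1.20, −0.66 and −0.62. Sgk1, a kinase gene of that list, was at 1.16 to 1.32 TPM in B2B1 and 3.24 to 5.30 TPM in B1, against 19.0 to 23.6 TPM in B2 (−3.33 ± 0.15 in B2B1 against B2, limma adjusted p = 3.86e-07). Of 15 immediate early genes, 12 were tested, and 9 were higher and 0 lower in B2B1 than in B2, 3 higher and 3 lower in B1 than in B2, and 3 higher and 0 lower in B2B1 than in B1. Of all tested genes, 21.0%, 18.0% and 6.93% were called higher in these comparisons, and the counts for B1 against B2 are near its shares of 18.0% higher and 33.9% lower. Per1 is itself 1 of the 7 glucocorticoid-responsive genes counted as lower in B2B1 than in B2.

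Within B1, library 2 had the lowest Per1, at 17.5 TPM against 27.8 and 33.7 TPM in libraries 1 and 3. Of the 10 genes of the glucocorticoid list, Per1 included, 6 were lowest in library 2 within B1, 1 was between the other libraries and 3 were highest there. Library 2 was taken up here for its low Per1, so Per1 is 1 of the 6 by choice. The share of all tested genes that were lowest in library 2 was not computed, so nothing is read from the count. Tsc22d3, a glucocorticoid-induced regulator, was among the 6, at 693.3 TPM in library 2 against 1448 and 1561 TPM in libraries 1 and 3. The others of the 6 were Cxcr4, Ddit4, Dusp1 and Nfkbia. Sgk1, Zfp36 and Klf9 were highest in library 2, with Sgk1 at 5.30 TPM there against 4.59 and 3.24 TPM, so the listed genes did not all have the order of Per1 within B1. Fkbp5 lay between, at 33.1 TPM in library 2 against 12.01 and 51.9 TPM. With all libraries, Tsc22d3 was not called in B1 against B2 (0.51 ± 0.315, limma adjusted p = 0.203), and these groups overlapped. Without B1 library 2, the difference of Per1 in B1 against B2 was 0.17 and did not pass (limma adjusted p = 0.321). Tsc22d3 was then called higher (0.88, limma adjusted p = 0.0121), but that fit leaves out its lowest B1 value, so the call is no separate evidence of a rise. The part of these signals in the Per1 values was not tested.

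**Figure D5:**
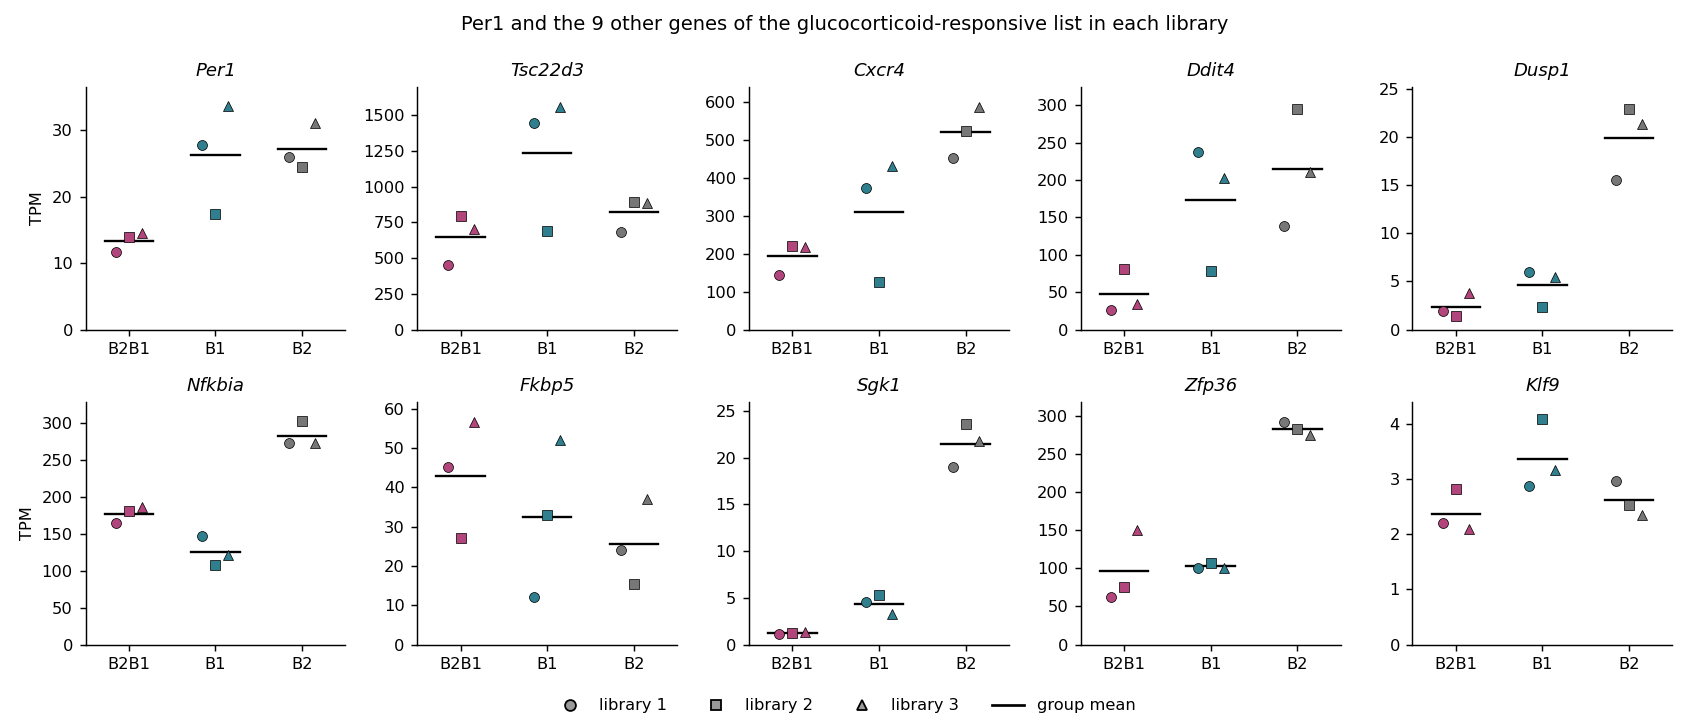
TPM of Per1 and the 9 other glucocorticoid-responsive genes of the list (vertical axes from 0) in each library of B2B1, B1 and B2; symbols mark library numbers and bars group means. B1 library 2, taken up for its low Per1 (17.5 TPM), was the lowest of the B1 libraries in 6 of the 10 genes, Per1 included. It was the highest in 3 (Sgk1, Zfp36 and Klf9), and the shares of all tested genes were not computed.

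By likeness of pattern over the 9 libraries, the tested genes closest to Arntl were Bptf, Cdk11b and Tox4 (Pearson's r of log2 values from 0.994 to 0.996), and those closest to Per2 were Grm6, Ceacam2 and Abcb1a (0.993 to 0.995). Such values were common in these libraries: 996 genes exceeded 0.95 with Arntl and 608 with Per2. Among the members, Arntl was closest to Cry2 (0.988) and Per2 (0.943) and had negative values with Dbp (−0.781), Nr1d1 (−0.329) and Nr1d2 (−0.218). The libraries share their group, so these values carry no test.

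In the mouse build GRCm38 (GENCODE M21), to which mm10 corresponds, Per2 lies on chromosome 1 from 91415982 to 91459324 and Cry2 on chromosome 2 from 92403646 to 92434043, both on the minus strand. Arntl lies on chromosome 7 from 113207465 to 113314126 on the plus strand, and Dbp on the same chromosome and strand from 45705088 to 45710203. Nr1d1 lies on chromosome 11 from 98767932 to 98775333 and Nr1d2 on chromosome 14 from 18204054 to 18239127, both on the minus strand, and Per1 on chromosome 11 from 69095217 to 69109960 on the plus strand. All are protein-coding genes.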

How the data were processed

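RNA-seq libraries of mouse B cells, 3 for each of B2B1, B1 and B2, were prepared with a TruSeq RNA v2 kit, per the labels' protocols. The submitters' processing notes name CASAVA 1.8.2, kallisto and mm10. Which transcript set was used, how transcripts were summed to genes, and whether strand was used is not stated there. The authors deposited TPM, which keep no depth: the sequencing depth is unknown and no counting error is given. The genes listed added up to 894515 to 943043 TPM in each library.

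From the deposited TPM, log2(TPM + 1) was computed, which understates the change of low genes, and a mean of at least 1 TPM over all 9 libraries was required (11099 genes). One limma model (limma 3.58.1, R 4.3.3, trended variance) held all 9 libraries and gave the 3 comparisons. Two-sided p-values were adjusted over all tested genes by the Benjamini-Hochberg method and called under 0.05. The procedure was tested on simulated data. Group sizes of 3 allow no exact permutation p under 0.1, so none was computed. No pair of libraries held identical values. The members and all gene lists were chosen with earlier results of these data known. The genes named are the 10 members, the 8 other clock pathway genes with the smallest adjusted p, and genes read beside a member. Tef, Csnk1e, Fbxw11, Gsk3b, Sgk1 and Tsc22d3 were picked from the lists for fuller values after these were seen. Promoter windows are from RefSeq. Up to 21 alternatives changed the pseudocount, filter, scaling, model or libraries. Python 3.11.15 with matplotlib 3.10.9 made the figures.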

Additional observations from a re-analysis of the deposited data

How the results depend on the processing

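Up to 21 alternatives were run per result. Under every one that tested them, the calls of Per2, Arntl and Cry2 against B2, of Nr1d1 and Nr1d2 in B1 against B2, and of Nfil3, Bhlhe41, Wee1 and Btrc against B2 held with the same direction. A filter at a mean of 5 TPM left Per2, Per3, Clock and Nr1d1 untested. The number of members called in B1 against B2 stayed at 2 to 3 higher and 2 to 4 lower. Depth is unknown, which limits what can be said of the low genes Clock, Per3 and Nr1d1. The causes of the changes below were not tested. Some settings hold fewer libraries, and the part of that was not tested either.

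In B2B1 against B2, the libraries with high Xist gave 0 members higher, 3 lower and 4223 genes called in all, where the full set gave 6995. Leaving out a library gave 0 to 1 members higher there. In B2B1 against B1, 4 members were called lower in the full set. Median-of-ratios scaling, quantile normalization, library weights and leaving out both B2B1 library 1 and B1 library 2 each gave 2. Fitting only these groups gave 0, with 1129 genes called in all, and the libraries with high Xist gave 0, with 408 genes, where the full set called 2108. Leaving out 1 library gave 0 to 4 members lower and 1341 to 2445 genes called. Quantile normalization moved the share of calls that were higher to 45.7% in B2B1 against B2, 46.4% in B1 against B2 and 48.1% in B2B1 against B1.

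The replicate block, which takes the library numbers as pairs, also gave 2 members lower in B2B1 against B1. The labels do not state that the numbers pair the libraries. Deviations of same-numbered libraries correlated at −0.0584 to 0.123, with 1 of 9 pairs over 0.1, against −0.205 to 0.125 for other numbers. With 3 libraries per group, such values cannot tell whether same-numbered libraries share an animal or day.

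The differences whose sign changed had not passed the test with all libraries. In B1 against B2, Per1 was at 0.067 with median-of-ratios scaling, 0.052 with quantile normalization and 0.056 with library weights. It was at 0.173 without both B2B1 library 1 and B1 library 2, and at −0.282 to 0.173 when 1 library was left out. Clock was there at −0.047 with quantile normalization, −0.022 with weights, −0.332 among the libraries with high Xist and −0.332 to 0.412 with 1 left out. Csnk1e was at 0.117 and 0.052 under the 2 rescalings and −0.109 to 0.074 with 1 left out, Tef at −0.102 to 0.167 with 1 left out, and Ddit4 at 0.099 without both libraries and −0.7 to 0.099 with 1 left out.

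In B2B1 against B2, Clock was at −0.077 with weights, −0.214 without both libraries, −0.834 with high Xist and −0.224 to 0.52 with 1 left out. Nr1d1 was at −0.003 with quantile normalization and −0.002 to 0.223 with 1 left out, and Nr1d2 at −0.011 to 0.09. In B2B1 against B1, Clock was at −0.055 with weights, −0.242 without both libraries, −0.502 with high Xist and −0.284 to 0.413 with 1 left out. Cry1 was at 0.004 with median-of-ratios scaling, 0.059 with high Xist and −0.177 to 0.014 with 1 left out. Dbp was at −0.028 with high Xist and −0.08 to 0.224 with 1 left out, and Per2 at −0.063 to 0.085. Bhlhe41 was at −0.083 without both libraries, −0.092 with high Xist and −0.138 to 0.25 with 1 left out. Btrc was at −0.008 with weights, −0.081 without both, −0.14 with high Xist and −0.028 to 0.194 with 1 left out, and Sphk2 at 0.05 without both.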
